A study of Mus musculus with 8 samples.

Results

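The mitochondrial genome of the mouse is a circular DNA of 37 genes, 13 for mRNAs of the respiratory chain, 22 for tRNAs and 2 for rRNAs. The transcripts described here are 7 of them, the mRNAs mt-Cytb, mt-Co1 and mt-Atp8 and the tRNAs mt-Ts2, mt-Tn, mt-Ty and mt-Te, out of 2372 genes in the table analysed. Every gene of that table has an unadjusted p below 0.05 between genotypes, so the 7 transcripts were taken from a list chosen on this contrast, and their differences are given as a description. The table holds 10 rows on the mitochondrial chromosome in all. The other 3 are mt-Nd1, mt-Tw and mt-Th, which are given beside the 7. The remaining 27 mitochondrial genes have no value here. Among the 7, the largest p was 0.00522 (mt-Atp8), and those of mt-Th, mt-Tw and mt-Nd1 were 0.0120, 0.0361 and 0.0434.

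RNA came from the medial prefrontal cortex (mPFC) of naive adult male mice on a C57Bl/6J background. The knockouts were 4 mice of genotype CamK2A-Cre;Gpr158flox/flox (CaKO), in which Cre under the CamK2A promoter is meant to remove the orphan receptor gene Gpr158 from forebrain excitatory neurons. The controls were 4 littermates of genotype Gpr158flox/flox, so both groups carry the floxed alleles and differ in the Cre transgene. The tissue was whole mPFC, which also holds the cells that Cre does not target, and each library is 1 mouse. The values used were the normalised counts of the 4 CaKO libraries (read counts divided by 1 factor per library) and, from the authors' deposited table, the log2 fold change of CaKO over control with its p. The control libraries' own values were not used here. A control level given below is the CaKO mean divided by the deposited fold change, and it has no SD.

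Both strands of mitochondrial DNA are transcribed as long precursors that hold many genes end to end. The tRNAs lie between the mRNAs and rRNAs like punctuation, and cutting them out at both ends frees the other transcripts. The heavy strand is the template of most genes, whereas the light strand gives a single mRNA, mt-Nd6, and a minority of the tRNAs. Mitochondrial mRNAs receive short poly-A tails and tRNAs a CCA end, and the libraries were made from poly-A-selected RNA, per the labels' protocols. Of the 7 transcripts, mt-Cytb, mt-Co1, mt-Atp8 and mt-Ts2 have the heavy strand as template and are annotated on the plus strand of GRCm38. The light strand is the template of mt-Tn, mt-Ty and mt-Te, which are annotated on the minus strand.

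The 4 tRNAs are shown because they carry the differences that passed the authors' test, and their sequences, from the GENCODE M21 transcripts (GRCm38), show how short they are beside a read of 100 bases. Capitals mark the anticodon, found as the middle of a 7-base loop closed by a stem of 5 base pairs (4 of 5 for mt-Ts2). They are given 5′ to 3′ as DNA letters of the RNA strand.
mt-Ts2: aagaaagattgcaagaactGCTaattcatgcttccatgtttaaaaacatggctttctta
mt-Tn: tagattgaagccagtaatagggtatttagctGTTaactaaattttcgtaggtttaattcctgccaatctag
mt-Ty: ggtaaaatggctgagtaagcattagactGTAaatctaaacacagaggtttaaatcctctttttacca
mt-Te: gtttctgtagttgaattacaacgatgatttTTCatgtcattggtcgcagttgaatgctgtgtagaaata

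Each tRNA gene is a single exon with neighbours close on both sides. mt-Ts2, the tRNA for serine codons AGY, lies at MT:11613-11671 on the plus strand (59 bases), directly after mt-Th and overlapping mt-Tl2 by 1 base. The asparagine tRNA mt-Tn lies at MT:5089-5159 on the minus strand (71 bases), 2 bases from mt-Ta and 32 from mt-Tc. The tyrosine tRNA mt-Ty lies at MT:5260-5326 on the minus strand (67 bases), 2 bases from mt-Tc and 1 base from the start of mt-Co1, which is on the other strand. The glutamate tRNA mt-Te lies at MT:14071-14139 on the minus strand (69 bases), touching mt-Nd6 and 5 bases from mt-Cytb, also on the other strand. From neighbour to neighbour the room is 58 bases for mt-Ts2 (its own bases free of mt-Tl2), 70 for mt-Ty, 74 for mt-Te and 105 for mt-Tn, so a read of 100 bases lying over mt-Ts2, mt-Ty or mt-Te reaches a neighbouring gene. The sources used here do not say whether reads were counted by strand, so a tRNA's reads cannot be told apart from reads of the opposite strand. Nor can they be told apart from reads of uncut precursors, and mature tRNAs end in CCA and not in the poly-A used for selection. A tRNA's counts below are therefore reads over its gene and do not measure the mature tRNA.

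Counts over the 3 light-strand tRNA genes fell in CaKO, and those over the heavy-strand tRNA gene mt-Ts2 rose. The mRNAs mt-Cytb and mt-Co1 were lower without passing the adjusted threshold. In total 4 of the 7 transcripts had an adjusted p below 0.05 per the authors' deposited table, 1 higher and 3 lower, against 3.24% of the 12938 genes in the adjustment (1.27% rose and 1.97% fell). The contrast chose the transcripts, so nothing is read from that comparison. Over the 7 transcripts the median log2 fold change per the authors' deposited table was -0.55, against -0.23 over all 2372 genes. Over all 10 mitochondrial rows it was -0.39. The 7 have the lowest p of those 10 rows, so nothing is read from these medians either. In bulk tissue, fewer cells of a type and less RNA per cell cannot be told apart.

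**Figure D1:**
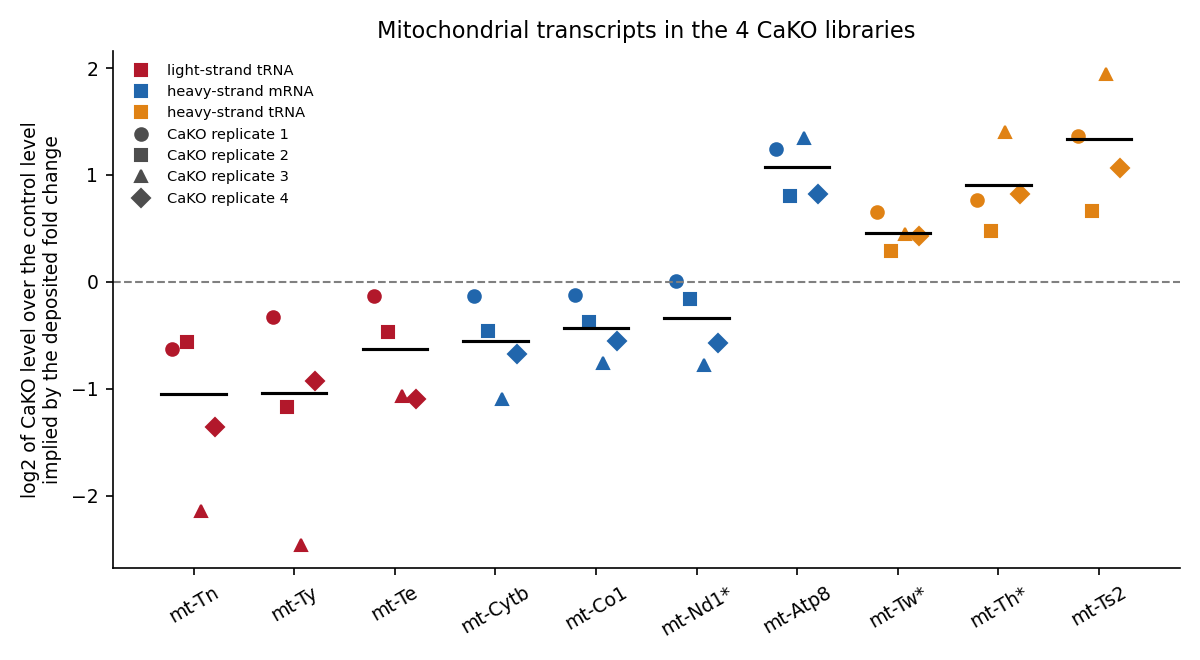
Each point is a CaKO library (shape: replicate), drawn as the log2 of its normalised count over the control level implied by the deposited fold change (dashed line at 0); black bars are the deposited log2 fold changes, colours give strand and kind, and asterisks mark the 3 mitochondrial rows outside the 7. All points of the 7 transcripts lie on the side of their fold change, and replicate 3 is the farthest from the line for mt-Tn, mt-Ty, mt-Cytb, mt-Co1, mt-Atp8 and mt-Ts2.

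Among the tRNAs, mt-Tn had 241, 251, 84.5 and 145 normalised counts in CaKO replicates 1 to 4, against an implied control level of 372. All 4 libraries lay below that level, and replicate 3 was far below replicates 1 and 2. It fell 2.06-fold per the authors' deposited table (-1.04 on the log2 scale, adjusted p = 0.00422), with a mean of 180.5 ± 80.03 in CaKO (SD, n = 4).

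mt-Ty had 91.5, 51.1, 20.9 and 60.4 normalised counts in CaKO replicates 1 to 4, against an implied control level of 115. Replicate 3 was again the lowest, and no CaKO library reached the implied control level. mt-Ty fell 2.05-fold per the authors' deposited table (-1.04 on the log2 scale, adjusted p = 0.0341), and its CaKO mean was 56.0 ± 29.1 (SD, n = 4). These levels rest on few reads. Replicate 3 had 21 reads (95% exact Poisson interval 13.0 to 32.1) and replicate 1 had 91 (73.3 to 112), so the spread between mice exceeded counting error, which is all that these intervals cover.

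mt-Te had 316, 251, 166 and 163 normalised counts in CaKO replicates 1 to 4, against an implied control level of 347. Replicates 3 and 4 were close to each other and lower than replicates 1 and 2. mt-Te fell 1.55-fold per the authors' deposited table (-0.63 on the log2 scale, adjusted p = 0.0362), with a mean of 224 ± 73.7 in CaKO (SD, n = 4). It is the called transcript nearest to the threshold, and mt-Cytb is the first beyond it.

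The serine tRNA mt-Ts2 had 73.4, 45.1, 109 and 59.4 normalised counts in CaKO replicates 1 to 4, against an implied control level of 28.5. Here replicate 3 was the highest, and every CaKO library was above the implied control level. mt-Ts2 rose 2.52-fold per the authors' deposited table (1.33 on the log2 scale, adjusted p = 0.00469), with a mean of 71.8 ± 27.6 in CaKO (SD, n = 4). Its upstream neighbour mt-Th, the histidine tRNA, had 28.1, 23.0, 43.7 and 29.2 normalised counts and the same order of the highest and lowest library. mt-Th had a log2 fold change of 0.91 per the authors' deposited table, with an unadjusted p of 0.0120 and no place in the adjustment. The third heavy-strand tRNA of the table, the tryptophan tRNA mt-Tw, had 138, 107, 119 and 118 normalised counts. Its log2 fold change per the authors' deposited table was 0.46 (adjusted p = 0.270).

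The mRNAs mt-Cytb, mt-Co1 and mt-Nd1 were far more abundant. mt-Cytb encodes cytochrome b, the mitochondrially encoded subunit of complex III (MT:14145-15288, plus strand, 1144 bases). It had 179011, 143130, 91596 and 122914 normalised counts in CaKO replicates 1 to 4, against an implied control level of 196341. All 4 libraries were below that level, replicate 1 only slightly and replicate 3 by the most. Its log2 fold change per the authors' deposited table was -0.55 (68.3% of control), and its adjusted p of 0.0562 did not pass. mt-Co1, the catalytic subunit of cytochrome c oxidase or complex IV (MT:5328-6872, plus strand, 1545 bases), had 407578, 341636, 262161 and 301351 normalised counts. The order of the libraries was the same as for mt-Cytb, and the implied control level was 442924. Its log2 fold change per the authors' deposited table was -0.43 (74.1% of control, adjusted p = 0.0887). mt-Nd1, a complex I subunit, also had replicate 3 lowest, with 140829, 124995, 81282 and 93995 normalised counts and a log2 fold change of -0.34 per the authors' deposited table (adjusted p = 0.293). Its replicate 1 lay just above the implied control level of 139644, so the difference was not shared by every CaKO library. An annotated nuclear pseudogene on chromosome 1, Gm29216, is 99.8% identical to the last 483 bases of mt-Co1 (31.3% of its length), so reads there could be assigned to either. No other mitochondrial row had an annotated nuclear transcript at 98% identity over 50 bases or more.

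mt-Atp8, a small subunit of the ATP synthase membrane part (MT:7766-7969, plus strand, 204 bases), had a fold change of the opposite sign to the other mRNAs. It is printed because it shares its last 43 bases, in capitals, with the start of mt-Atp6, so that 161 bases belong to mt-Atp8 alone.
mt-Atp8: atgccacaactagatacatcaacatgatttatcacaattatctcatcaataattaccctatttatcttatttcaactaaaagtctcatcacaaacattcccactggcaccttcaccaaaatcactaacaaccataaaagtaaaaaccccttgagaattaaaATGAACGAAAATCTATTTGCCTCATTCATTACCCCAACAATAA
It had 50.3, 37.1, 53.7 and 37.5 normalised counts in CaKO replicates 1 to 4, against an implied control level of 21.2. The libraries fell into a higher pair (replicates 1 and 3) and a lower pair (replicates 2 and 4), all above the implied control level. Its log2 fold change per the authors' deposited table was 1.08 at an unadjusted p of 0.00522, and it was left out of the adjustment, so it is not among the calls. With 36 to 54 reads per library, its 95% exact Poisson intervals ran from 25.2 to 49.8 at the fewest reads and from 40.6 to 70.5 at the most, and they overlap.

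**Figure D2:**
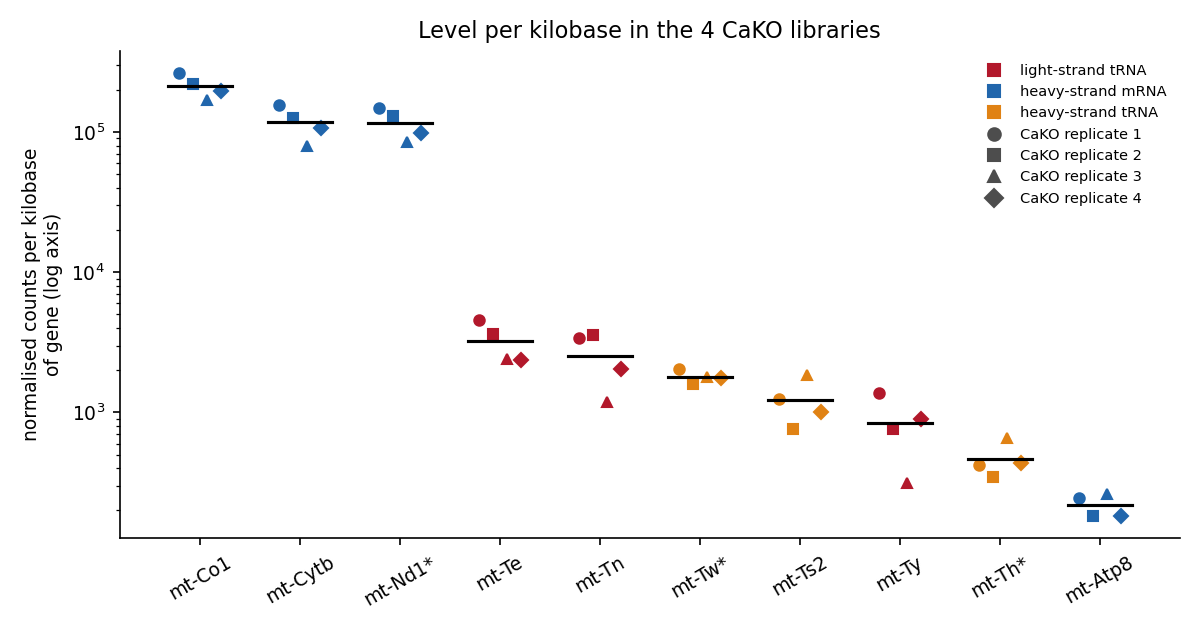
Normalised counts per kilobase of gene (log axis) in each CaKO library, ordered by the mean (black bars), with colours for strand and kind and asterisks for the rows outside the 7. The mRNAs mt-Co1, mt-Cytb and mt-Nd1 reach at least 80066 in every library, and all tRNAs and mt-Atp8 stay at or below 4574.

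Per kilobase of gene, the order in CaKO was mt-Co1 (212415 ± 40184 normalised counts per kilobase), mt-Cytb (117275 ± 32039), mt-Te (3245 ± 1068), mt-Tn (2542 ± 1127), mt-Ts2 (1217 ± 467), mt-Ty (835 ± 434) and mt-Atp8 (219 ± 42.1; SD, n = 4 each). The ranges of neighbouring members over the 4 libraries overlapped from mt-Te to mt-Ty, so neighbours in that stretch are not separated beyond the spread between mice. The range of mt-Te, 2356 to 4574 per kilobase, lay wholly above those of mt-Ts2 (764 to 1853) and mt-Ty (312 to 1365). Within each of the 4 libraries, mt-Te was above mt-Tn and mt-Tn above mt-Ty. In replicate 2, however, mt-Te and mt-Tn both had 251 reads, so their order there comes from the length correction alone. mt-Co1 was above mt-Cytb in every library, and both were above all tRNAs. mt-Atp8, although an mRNA, had fewer counts per kilobase than every tRNA among the 7 in every library. Its level per kilobase was 182 to 263, against 312 for the lowest tRNA value, that of mt-Ty in replicate 3. Only 161 bases of mt-Atp8 are its own, and how reads that reach mt-Atp6 were counted is not known. Its low count is therefore not read as a low level of its mRNA. Genes shorter than the reads collect reads in a way that a length correction does not capture, so levels of tRNAs and mRNAs are comparable only in order of size.

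By kind, all 4 tRNAs were called per the authors' deposited table (1 rose, 3 fell), and 0 of the 3 mRNAs. Over all genes in the adjustment 3.24% were called. With all 10 mitochondrial rows, 4 of 6 tRNAs and 0 of 4 mRNAs were called. mt-Atp8 and mt-Th were outside the adjustment and could not be called. The 7 have the lowest p of the 10 rows, so nothing is read from these counts. All 3 mRNAs had an unadjusted p below 0.05 per the authors' deposited table, as the choice of the table fixes; over the genes in the adjustment 7.14% were higher and 8.68% lower at that p. The median log2 fold change per the authors' deposited table was -0.83 for the 4 tRNAs (range -1.04 to 1.33) and -0.43 for the 3 mRNAs (range -0.55 to 1.08), so both kinds held transcripts of either direction. Over all 10 rows the medians per the authors' deposited table were -0.09 for the 6 tRNAs and -0.39 for the 4 mRNAs. The order of the kinds was then reversed, so nothing is read from it. By strand, the 3 light-strand transcripts were all lower, and their log2 fold changes had a median of -1.04 per the authors' deposited table and a range from -1.04 to -0.63. The 4 heavy-strand transcripts ranged from -0.55 to 1.33. With mt-Nd1, mt-Tw and mt-Th included, all 3 heavy-strand tRNAs were higher and all 3 light-strand tRNAs lower per the authors' deposited table, and 3 of the 4 heavy-strand mRNAs were lower. Strand and kind are not independent among these rows, since the light strand is represented by tRNAs alone. Genes of a single precursor are not replicates of a strand, and no test of the difference between strands was made. Of the 8 light-strand tRNA genes in the annotation, 3 have a row, and of the 14 heavy-strand ones, 3 have a row.

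**Figure D3:**
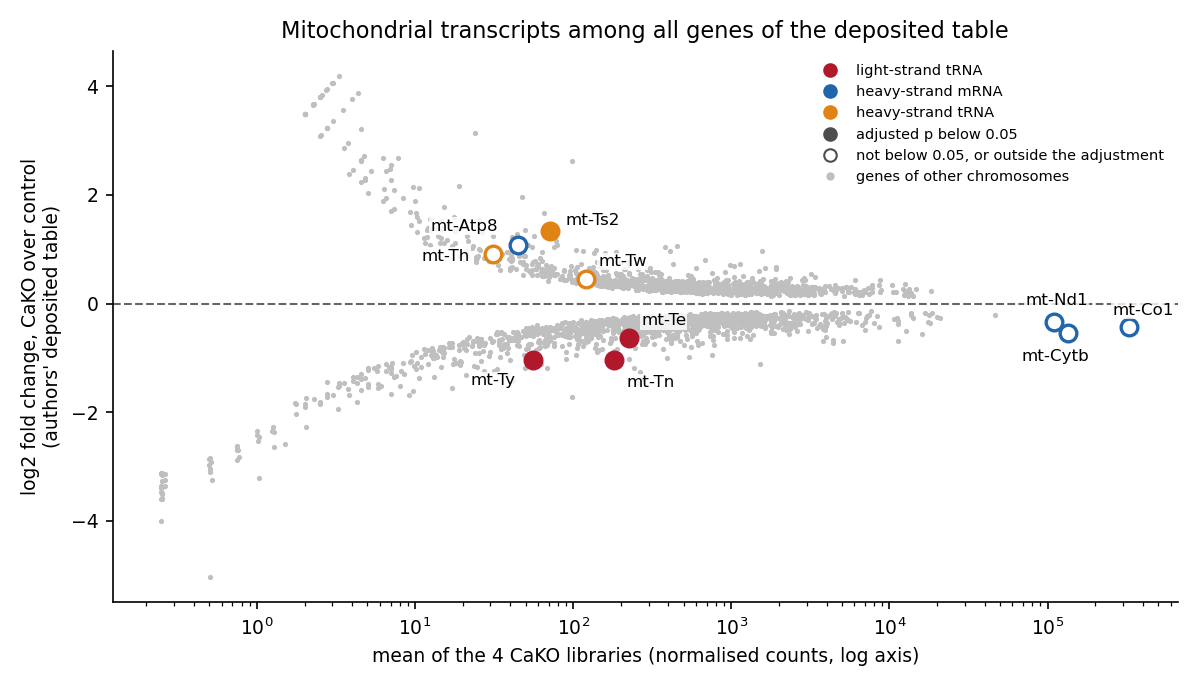
Each grey dot is a gene of another chromosome in the deposited table with a CaKO mean above 0, placed by that mean (log axis) and by its deposited log2 fold change of CaKO over control; large circles are the 10 mitochondrial rows, filled where the adjusted p is below 0.05. The empty band along 0 arises because the table lists genes with a p below 0.05, and the mRNAs mt-Co1, mt-Cytb and mt-Nd1 stand to the right of every other gene.

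The light-strand tRNAs were also set against the mRNA closest to them in the table. mt-Te had 1.76, 1.76, 1.81 and 1.32 normalised counts per 1000 of mt-Cytb in CaKO replicates 1 to 4, against 1.77 in the implied controls. Replicates 1 to 3 were at the implied control ratio and replicate 4 was below it, so mt-Te and mt-Cytb were lower by nearly the same factor (difference in log2 fold change -0.08). mt-Ty had 0.224, 0.150, 0.0796 and 0.201 normalised counts per 1000 of mt-Co1, against 0.259 in the implied controls. For mt-Tn the ratio to mt-Co1 was 0.592, 0.736, 0.322 and 0.481 per 1000, against 0.840 in the implied controls. Both tRNAs were below the implied control ratio in all 4 CaKO libraries, with differences in log2 fold change from mt-Co1 of -0.61 each. mt-Ty and mt-Tn, which lie in the same tRNA cluster, had nearly equal log2 fold changes per the authors' deposited table, but their ratio varied between libraries from 203 to 417 counts of mt-Ty per 1000 of mt-Tn.

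**Figure D4:**
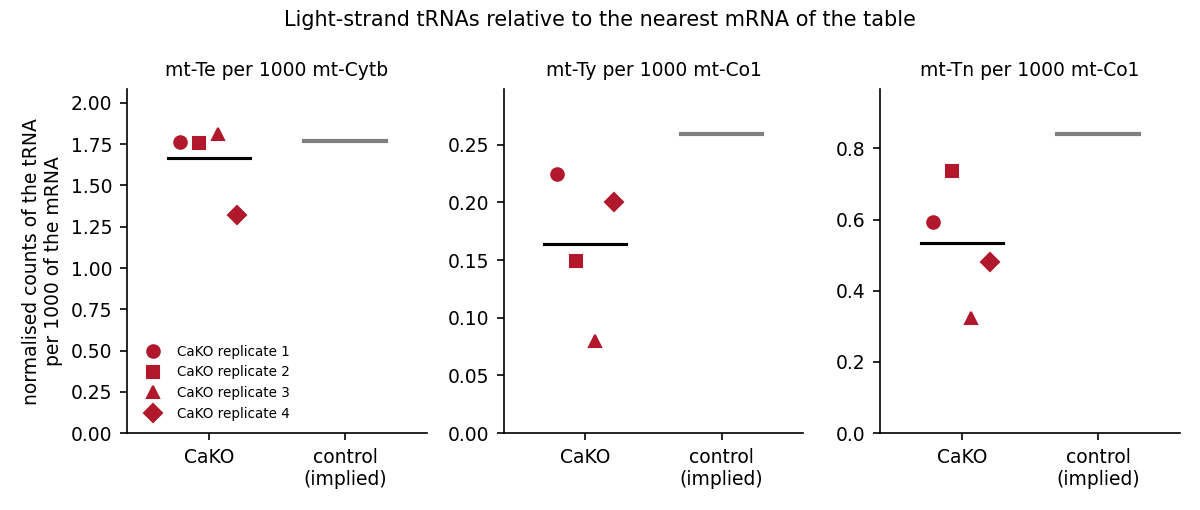
Normalised counts of each light-strand tRNA per 1000 counts of the closest mRNA of the table, with CaKO libraries as points (shape: replicate) and their mean as a black bar, and the ratio implied for the controls as a grey bar on the right; the axes start at 0. mt-Te sits at 1.32 to 1.81 around the implied 1.77, whereas all CaKO points for mt-Ty and mt-Tn lie below the grey bar.

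The 4 CaKO libraries differed from one another. Replicate 3 was the lowest library for 5 of the 6 mitochondrial rows that were lower in CaKO and the highest for 3 of the 4 that were higher. Replicate 3 also stood apart for genes of other chromosomes. It was the lowest of the 4 for 669 of 1117 lower genes (59.9%) and the highest for 454 of 922 higher genes (49.2%) in the adjustment. All these rows were chosen on a contrast whose CaKO mean includes replicate 3. A library far from the others therefore tends to be the extreme one in the direction of the fold change, and nothing is read from these shares. The 10 mitochondrial rows took 22.8%, 20.1%, 15.5% and 17.2% of the reads over the table in replicates 1 to 4 (3183638, 3038482, 2832931 and 2900223 reads). When replicate 3 was left out by an approximation, the log2 fold changes of mt-Tn, mt-Ty, mt-Te and mt-Ts2 became -0.81, -0.76, -0.51 and 1.06. None of the 4 calls was then kept, although all 4 approximate p-values (0.00226 to 0.0225) stayed below 0.05. The approximation holds the spread between mice fixed, so a refit without replicate 3 could give other calls. The directions did not change for any of the 7, but this was fixed beforehand, because all 4 CaKO libraries lie on the same side of the implied control level. Without replicate 2 the call of mt-Ty ended (-0.996), and without replicate 4 that of mt-Te (-0.51). The lower precision of 3 libraries by itself would have ended the calls of mt-Ty and mt-Te, whose p with an unchanged fold change would be 0.00194 and 0.00222, against 0.00162 for the largest p of a called gene.

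The spread between CaKO mice was wide for several of these transcripts. The highest library exceeded the lowest 4.38-fold for mt-Ty, 2.98-fold for mt-Tn, 2.43-fold for mt-Ts2, 1.95-fold for mt-Cytb, 1.94-fold for mt-Te, 1.55-fold for mt-Co1 and 1.45-fold for mt-Atp8. Among the 100 genes of other chromosomes with the closest mean in the table, none had a log2 range as wide as that of mt-Ty (2.13, against a median of 0.58) or mt-Tn (1.57, against 0.44). For mt-Cytb (0.97, against 0.31) this also held, but the closest genes reached a mean of 46288 at most, far below its own. mt-Atp8 was less variable than most genes of its level in the table, with 32 of 100 below it. The genes compared all have an unadjusted p below 0.05 per the authors' deposited table, a choice that favours genes with little spread between mice. These comparisons therefore hold within the table and not for genes of like level in general.

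By the shape of the 4 values alone, the genes of other chromosomes closest to mt-Co1 were Zdhhc16, Mlip and 1810055G02Rik. Their root-mean-square differences from its centred log2 profile were 0.0329, 0.0429 and 0.0473 over 4 libraries, among 1259 genes compared. Zdhhc16, a palmitoyltransferase gene, had 230, 188, 145 and 176 normalised counts, in the same order as mt-Co1. For mt-Ts2 the closest of 380 genes were Dlx1as, Gm21378 and Lhfpl5, at 0.151, 0.168 and 0.172. Lhfpl5 had 56.3, 40.1, 69.6 and 42.7 normalised counts and rose per the authors' deposited table (1.08 on the log2 scale, adjusted p = 0.0406). With so few libraries such likeness is a description of these mice.

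Few nuclear genes that serve the mitochondrial genome were in the table and none of those was called. Since 3.24% of all genes in the adjustment were called, nothing is read from the absence of calls in lists this short. Of 20 genes of mitochondrial DNA transcription and maintenance, 1 was in the table, Mterf3, a regulator of mitochondrial transcription, with 0.37 on the log2 scale per the authors' deposited table (adjusted p = 0.107). Of 23 genes of mitochondrial RNA processing and stability, Fastk alone was in the table, at -0.33 per the authors' deposited table (adjusted p = 0.186). Of 38 genes that modify or charge mitochondrial tRNAs, 5 were in the table and 0 passed the adjusted threshold per the authors' deposited table. They were Pars2, Gatb and Yrdc, which were higher, and Kars and Rars2, which were lower, with log2 fold changes per the authors' deposited table from -0.29 to 0.62 and an unadjusted p below 0.05 for all 5. The synthetases that charge the 4 tRNAs, Sars2, Nars2, Yars2 and Ears2, have no value here.

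Nuclear partners of the encoded proteins moved in either direction. Among 15 subunits and assembly factors of complex III, the complex of mt-Cytb, 1 rose and 2 fell per the authors' deposited table. Over all genes in the adjustment 1.27% rose and 1.97% fell, and with 1 to 3 calls per list nothing is read from these counts. The assembly factor Uqcc1, which binds newly made cytochrome b in yeast and human cells, averaged 705 ± 29.0 normalised counts (SD, n = 4) and rose by 0.39 on the log2 scale per the authors' deposited table (adjusted p = 0.00661). Bcs1l, which inserts the iron-sulphur subunit, and the subunit Uqcrb fell by 0.49 (adjusted p = 0.0219) and 0.52 (adjusted p = 0.0406) per the authors' deposited table. Among 26 genes of complex IV, the complex of mt-Co1, the subunit Cox6b1 was the single call. It had 1245, 1066, 748 and 1124 normalised counts in CaKO replicates 1 to 4, lowest in replicate 3 like mt-Co1, and fell by 0.52 per the authors' deposited table (adjusted p = 0.0292). Among 15 ATP synthase genes, the complex of mt-Atp8, 1 rose (Atp5g1, log2 fold change 0.38, adjusted p = 0.0170) and 2 fell (Atp5k at -1.71, adjusted p = 0.00481, and Atp5o at -0.61, adjusted p = 0.0291) per the authors' deposited table.

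Other measures of the tissue moved beside these transcripts, and their part in the results was not tested. Over all genes in the adjustment 3.24% were called (1.27% rose and 1.97% fell). Of 10 neuron markers, 2 were in the table, Camk2a and Rbfox3, both lower per the authors' deposited table (log2 fold changes -0.20 and -0.28, adjusted p = 0.316 and 0.282). Their summed level was 51061, 50922, 39891 and 54110 normalised counts in replicates 1 to 4, lowest in replicate 3. Of 10 oligodendrocyte markers 8 were lower, with 5 calls per the authors' deposited table. Their summed level in CaKO ran from 35395 (replicate 4) to 43069 (replicate 1), with 35506 in replicate 3. Their median log2 fold change per the authors' deposited table was -0.53. The 5 calls were Gpr17 (log2 fold change -0.76, adjusted p = 2.46e-06), Mobp (-0.73, 1.37e-07), Mbp (-0.68, 5.38e-05), Cnp (-0.35, 0.0122) and Mag (-0.32, 0.0279). Of 8 astrocyte markers 4 were lower, with 2 calls and a summed level of 10325 (replicate 3) to 12908 (replicate 2). Red blood cell markers (3 of 6, all lower) summed to between 867 (replicate 4) and 1405 (replicate 3, the highest). Of these 1 was called, Hba-a1, which fell by 1.18 on the log2 scale per the authors' deposited table (adjusted p = 5.04e-12). Endothelial markers (2 of 8, both lower) summed to between 1707 (replicate 3) and 1781 (replicate 4). Among them 1 was called, Ly6c1, which fell by 0.39 on the log2 scale per the authors' deposited table (adjusted p = 0.00481). No microglial or neuron marker was called, and the microglial marker Trem2 (1 of 8, higher) reached 144 (replicate 3) to 178 (replicate 1). None of these markers in the table was at 0 in all CaKO libraries, and none of 6 markers of heart, skeletal muscle and brown fat was in the table. Of 16 immediate early genes 3 were in the table, Klf4, Egr1 and Egr4, all lower, with 1 call per the authors' deposited table, Klf4, which fell by 1.19 on the log2 scale (adjusted p = 0.0157). Their summed level was lowest in replicate 3 (3068 normalised counts) and up to 5492 in the others. Of 410 nuclear genes for RNAs without a poly-A tail, such as small nucleolar RNAs and replication histones, Snord8 was the only row, with 0 to 5 reads per library. No row of the table, which lists genes with an unadjusted p below 0.05, overlapped Gpr158. The deleted gene therefore has no value here with which to check the genotypes.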

How the data were processed

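Poly-A-selected RNA of 4 CaKO and 4 control mice was sequenced as paired reads of 100 bases, per the labels' protocols. The submitters' processing notes name TopHat2 2.0.12, HTSeq 0.6.1, DESeq2 1.30.1 and the build GRCm38. The library values deposited by the authors are a signal, read counts divided by 1 factor per library, and not FPKM in spite of the table's name. The value of 1 read was found for each CaKO library (0.994 to 1.042). Division by it gave whole numbers for 100.0% of the values of each CaKO library (tolerance 0.01), which are the reads behind each value. These reads cover the genes of the table, so total depth is unknown. The log2 fold changes, p-values and adjusted p-values are the authors' own, as deposited; the adjusted ones follow Benjamini-Hochberg over 12938 genes (largest relative difference 0.005), and an adjusted p listed as 1 (325 genes) was taken as outside the adjustment. They run as CaKO over control: the 18 genes at 0 in every CaKO library all have negative ones.

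A call is an adjusted p below 0.05. "Rose" and "fell" are used of calls. No model was refitted, because values of the control libraries were not used. Genes were named by position in GENCODE M21, with 2266 exact matches, 89 by at least 80% mutual overlap and 17 without a match. Nuclear copies were sought with BLAST 2.17.0 among annotated transcripts. Leaving out a library was approximated by moving the CaKO mean against the implied control level and widening the standard error implied by the p. The spread between mice was held fixed and not estimated again. Simulated data, which also had a fixed spread, checked the arithmetic alone. The 7 transcripts and all gene lists were chosen with earlier results of these data known. The text names all mitochondrial rows, pathway list members with calls (at most 4 per list by size of change) and the 3 genes closest in pattern to mt-Co1 and mt-Ts2 (mean of at least 50, pseudocount 1). Cell type markers and list members without a call that are named were chosen after their values were seen.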

Additional observations from a re-analysis of the deposited data

How the results depend on the processing

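Control values were not used here, so alternatives could not be refitted, and leaving out a CaKO library is an approximation in which counts of calls can fall but not grow, since only genes called with all libraries were recounted. No paired analysis was possible because the deposited columns used here hold CaKO libraries alone. At an adjusted p below 0.01, 2 of the 7 mitochondrial transcripts were called (1 fell), and at 0.1, 6 were (5 fell). Over all genes the calls were 141 at 0.01 (51 rose, 90 fell) and 671 at 0.1 (275 rose, 396 fell), against 419 (164 and 255) at 0.05. A minimum CaKO mean of 50 left all 4 mitochondrial calls. With a CaKO library left out, the mitochondrial calls ranged from 0 to 4 (0 to 1 that rose, 0 to 3 that fell), and calls over all genes from 180 to 326 (76 to 129 rose, 104 to 222 fell), each lowest without replicate 3. The cause was not tested. Without replicate 1, mt-Cytb and mt-Co1 passed the largest called p, at -0.72 and -0.55. Relative to the median of the 10 mitochondrial rows (-0.39), mt-Cytb, mt-Co1, mt-Te, mt-Tn and mt-Ty were at -0.16, -0.05, -0.25, -0.66 and -0.65, and mt-Atp8 and mt-Ts2 at 1.46 and 1.72. Relative to the median of the table (-0.23), mt-Cytb, mt-Co1, mt-Te, mt-Tn and mt-Ty were at -0.32, -0.20, -0.40, -0.81 and -0.81, and mt-Atp8 and mt-Ts2 at 1.31 and 1.57. None of the 42 alternative fold changes of the 7 changed sign. For those that leave out a library this was fixed beforehand, because all CaKO libraries lie on the same side of the implied control level. Read numbers limit mt-Ty, mt-Ts2 and mt-Atp8.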
